A study of Homo sapiens with 4 samples.

Results

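The 10 genes described here encode the NF-kB subunits and the proteins that hold them in check or release them. They are the 5 subunits (NFKB1, NFKB2, RELA, RELB and REL), the inhibitors NFKBIA and NFKBIB, the feedback inhibitor TNFAIP3, and the kinase subunits IKBKB and IKBKG. The rule names them by function and uses no measured value, although it was set with earlier results of these data known; they are 10 of the 58735 genes listed in each table of counts. All 10 passed the expression filter, together with 15075 genes in all.

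HaCaT, an established human keratinocyte line, was profiled by RNA-seq to see how loss of ALKBH5, an RNA m6A demethylase, changes gene expression. The siControl group (labelled WT) received a negative control siRNA and the siALKBH5 group received siRNA against ALKBH5, with 2 libraries per group; which of the study's ALKBH5 siRNAs the libraries carry is not stated. All 4 libraries came from the same line, grown in serum-containing medium and transfected by lipofection, and no inflammatory stimulus is named in the labels. The knockdown is partial and transient, 1 cell line was used, and the sources do not say whether duplicates came from separate cultures, so p-values measure the spread between these libraries, which may be technical.

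NF-kB is a family of dimeric transcription factors. In resting cells IkB proteins hold the dimers in the cytoplasm. A kinase complex of IKBKB, CHUK and the scaffold IKBKG phosphorylates the IkB proteins, which are then ubiquitinated and degraded, and the freed dimers, chiefly RELA with p50 from NFKB1, enter the nucleus. In a slower branch the p100 product of NFKB2 is cut to p52, which pairs with RELB. Several of these genes are themselves NF-kB targets, and NFKBIA and TNFAIP3 close negative feedback loops. In keratinocytes the pathway carries the response to IL-1, TNF and Toll-like receptor ligands.

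Because the family regulates its own genes, the promoters of the members are shown first. RefSeq windows on GRCh38.p14, from 250 bases before to 50 bases after each annotated start, were found for 8 of the 10 members, 16 windows in all; RELB and IKBKB were not matched. Both strands were searched for the 10-base kappaB consensus, the only motif searched. At least 1 window held a match in 6 of the 8 members, against 13.3% of the 27305 genes with a window. Counted by window, 7 of the 16 windows of members held a match (43.8%), against 11.3% of all 35116 windows. NFKBIA and NFKB2, whose RNA changed in the comparison below, are given as whole windows, 5' to 3' along the gene, with the matched bases in capitals and overlapping matches run together.
NFKBIA, chr14:35404700-35404999, minus strand: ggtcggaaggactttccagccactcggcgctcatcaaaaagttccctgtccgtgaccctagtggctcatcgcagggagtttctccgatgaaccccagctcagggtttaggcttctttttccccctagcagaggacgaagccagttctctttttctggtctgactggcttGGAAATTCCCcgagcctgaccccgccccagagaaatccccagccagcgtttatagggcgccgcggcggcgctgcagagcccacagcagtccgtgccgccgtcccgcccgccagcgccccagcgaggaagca
NFKB2, chr10:102394328-102394627, plus strand: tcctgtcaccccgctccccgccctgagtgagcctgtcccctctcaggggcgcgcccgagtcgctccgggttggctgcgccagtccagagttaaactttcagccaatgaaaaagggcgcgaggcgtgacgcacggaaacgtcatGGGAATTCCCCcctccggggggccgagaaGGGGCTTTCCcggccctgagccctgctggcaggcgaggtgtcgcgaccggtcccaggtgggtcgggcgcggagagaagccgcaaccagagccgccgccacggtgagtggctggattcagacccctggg
NFKB2, chr10:102395455-102395754, plus strand: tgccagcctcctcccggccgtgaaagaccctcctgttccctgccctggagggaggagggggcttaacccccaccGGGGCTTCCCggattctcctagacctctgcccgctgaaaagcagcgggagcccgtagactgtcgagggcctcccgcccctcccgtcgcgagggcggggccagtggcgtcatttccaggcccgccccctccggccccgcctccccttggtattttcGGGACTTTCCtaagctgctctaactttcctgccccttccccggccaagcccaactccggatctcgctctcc

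NFKBIA had 1 match, which began at position -81 from the start. In the NFKB2 windows shown, the matches began at -107, -106 and -78 in the upstream one and, in the downstream one, at -176 and -21, and NFKB2, with 3 windows, held more matches than any other member; its remaining window held none. The other members with a match are shown as the matched bases with up to 15 bases on either side, to let the sites be compared.
NFKB1, chr4:102501295-102501334, plus strand: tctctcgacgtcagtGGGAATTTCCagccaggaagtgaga
REL, chr2:60881512-60881552, plus strand: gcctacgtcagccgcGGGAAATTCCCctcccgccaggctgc
TNFAIP3, chr6:137867177-137867228, plus strand: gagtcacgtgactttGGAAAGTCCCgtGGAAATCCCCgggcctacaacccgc
NFKBIB, chr19:38899926-38899966, plus strand: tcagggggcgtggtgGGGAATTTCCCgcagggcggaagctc
NFKBIB, chr19:38899992-38900018, plus strand: caggcgggcgactgcGGGGGGCCCCtg

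The match of NFKB1 began at -49, those of REL at -47 and -46, those of TNFAIP3 at -67 and -55, and those of NFKBIB at -28, -27 and 39. The same 10 letters need not be bound in these cells, and binding was not measured here. RELA and IKBKG held no match in their windows, which says only that these letters are not there.

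**Figure D1:**
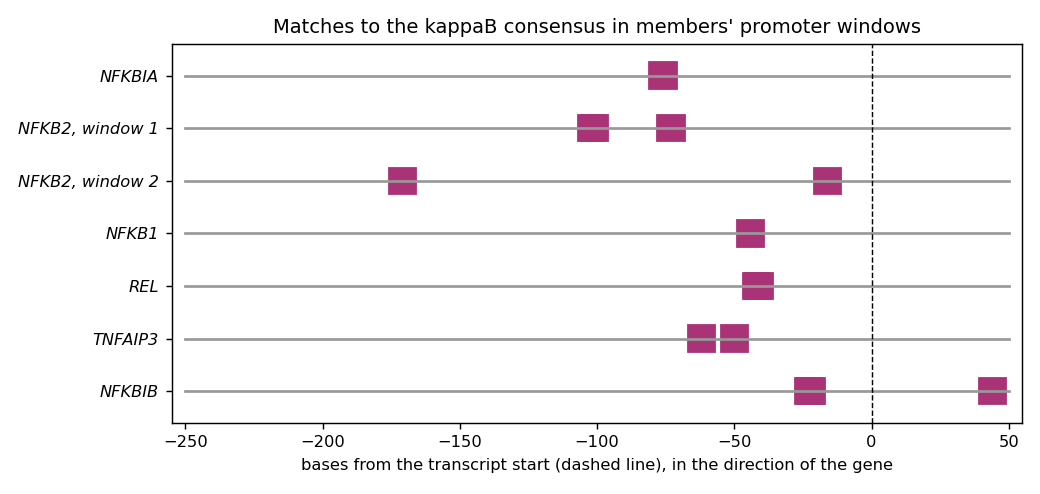
Position of each match to the kappaB consensus (filled bars) in the promoter windows of the 6 members with a match; the x axis gives bases from the transcript start (dashed line) and each grey line is 1 window. Apart from the match of NFKBIB at 39, every match in these windows lies upstream of the start, and those of NFKBIA, NFKB1, REL and TNFAIP3 lie between -81 and -46.

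The libraries held 16017502 and 17877181 counts on genes in siControl and 18837807 and 16618169 in siALKBH5. CPM here are gene counts after every library was brought to one size with TMM factors, and groups were compared with edgeR's quasi-likelihood test with Benjamini-Hochberg adjustment over the 15075 genes. Genes with an adjusted p under 0.05 count as called; the intervals given are 95% intervals from the same fit. The targeted gene, ALKBH5, went from 1512 and 1576 counts in siControl to 956 and 816 in siALKBH5 (log2 fold change -0.85, 95% interval -0.95 to -0.74, adjusted p = 6.4e-15). All 10 keratinocyte markers were expressed, but not at equal levels in the groups. KRT5 had 7163 and 6905 CPM in siControl and 11184 and 11312 CPM in siALKBH5. In such bulk libraries fewer cells that express a gene and less of its RNA per cell cannot be told apart.

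At baseline the RNA of the inhibitor NFKBIA was the most abundant of the family. Levels between genes were compared per length, as FPKM recomputed from the counts, the listed gene length and the normalized library size. NFKBIA, the fastest-acting IkB, stood highest with 54.1 ± 1.04 FPKM (SD, n = 2) in siControl. RELA, the main activating subunit, followed with 19.6 ± 0.654 FPKM. Below them NFKB1 (8.12 ± 0.368 FPKM), NFKBIB (8.08 ± 0.398 FPKM) and NFKB2 (8.04 ± 0.313 FPKM) had overlapping libraries in siControl and did not differ beyond their spread. The kinase subunits came next, IKBKB with 4.06 ± 0.174 FPKM and IKBKG with 2.68 ± 0.190 FPKM. RELB (2.16 ± 0.264 FPKM) and REL (2.03 ± 0.0341 FPKM) could not be ordered, and TNFAIP3 was lowest with 1.82 ± 0.0057 FPKM. The place of REL is uncertain, since part of its exon bases is shared with another gene, as given below. In siALKBH5 the order of the middle group opened up: NFKB2 reached 9.86 ± 0.0647 FPKM (n = 2), above NFKB1 with 8.98 ± 0.172 FPKM and NFKBIB with 8.27 ± 0.254 FPKM, and these 3 genes no longer overlapped. Without the length the order changed, with IKBKB in place 4 and REL in place 6 by CPM and RELB last, since the listed lengths run from 2324 bases for NFKBIB to 13170 bases for REL.

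**Figure D2:**
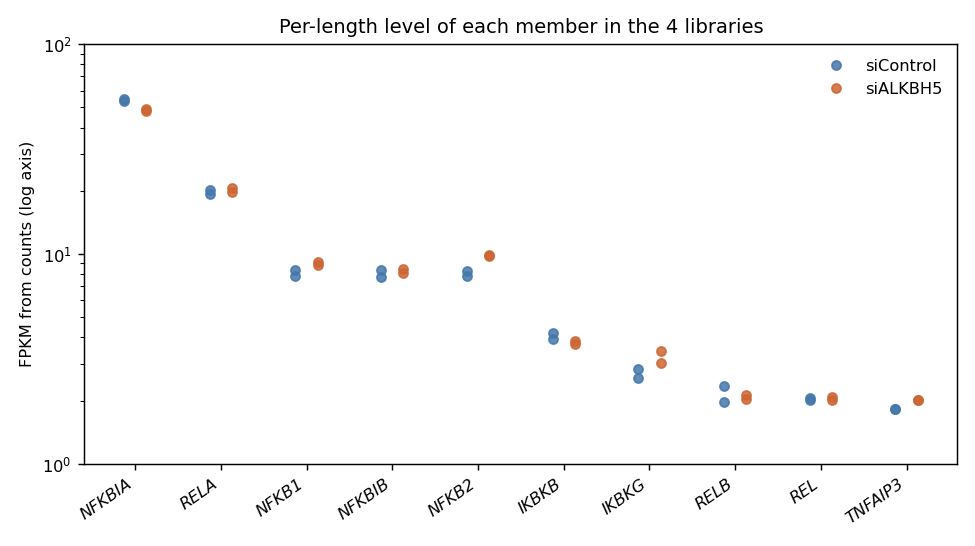
Per-length level (FPKM recomputed from counts, log axis) of each member in the siControl (blue) and siALKBH5 (orange) libraries, 1 point per library, ordered by the siControl mean. NFKBIA and RELA stand apart from the rest, and NFKB2 lies above NFKB1 and NFKBIB in siALKBH5, whereas the 3 genes overlap in siControl.

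After ALKBH5 knockdown NFKB2 rose by 22.7% and NFKBIA fell by 10.4%, and the other 8 members were not called. The 95% intervals of all 10 members lay between -0.39 and 0.53 on the log2 scale. Over all genes tested, 36.6% were called, 19.3% higher and 17.3% lower, beside 2 of the 10 members, 1 in each direction. With a log2 size of 1 or more required as well, 2.92% of all genes tested and 0 of the 10 members were called. The libraries of the groups did not overlap in CPM for 6 of the 10 members, against 66.3% of all genes tested. The median log2 fold change of the members was 0.04, beside -0.0081 over all genes tested.

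**Figure D3:**
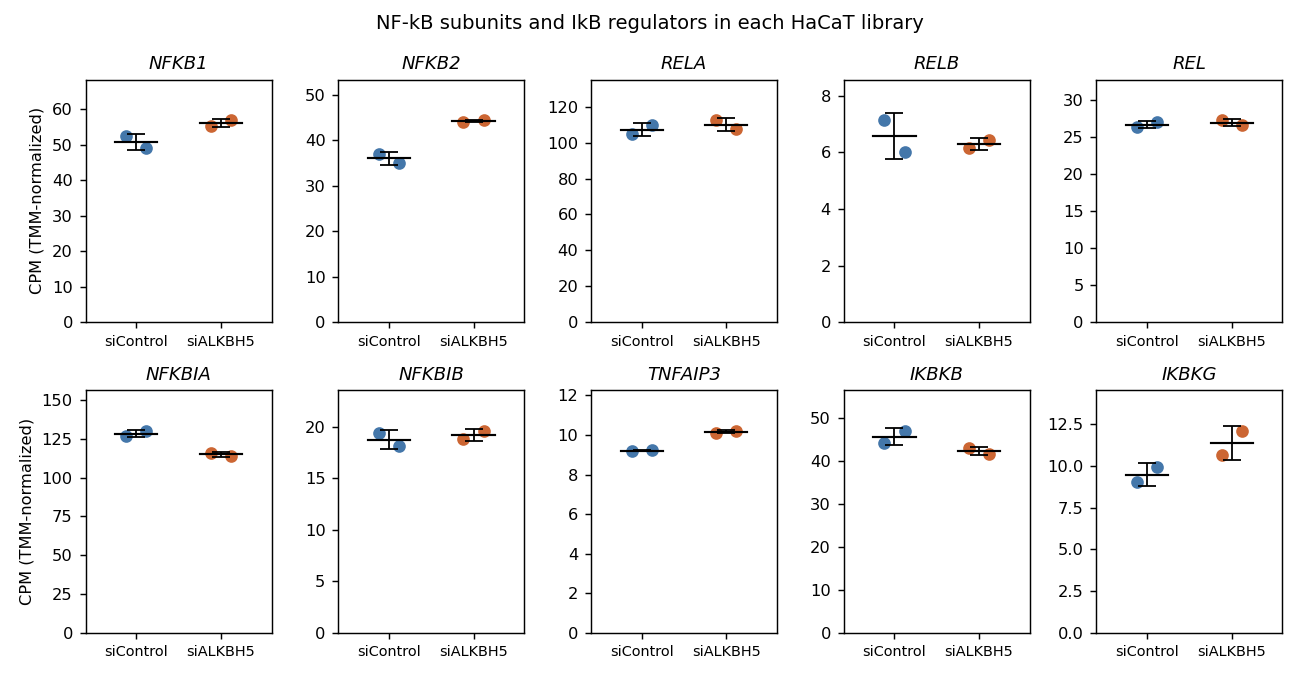
CPM of each member in the 4 HaCaT libraries (points), with the group mean (long line) and SD (error bar, n = 2); each y axis starts at 0. The siALKBH5 libraries of NFKB2, at 44.0 and 44.4 CPM, lie above both siControl libraries, those of NFKBIA lie below them, and those of RELA, RELB, REL and NFKBIB overlap.

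Among the subunits, NFKB2 (ENSG00000077150, chromosome 10 from 102394110 to 102402529 on GRCh38), which encodes p100 and p52, showed the clearest change. Its counts were 597 and 631 in siControl against 822 and 731 in siALKBH5, or 37.1 and 35.1 CPM against 44.0 and 44.4 CPM. The siALKBH5 libraries were nearly equal and both lay above the siControl libraries. Its log2 fold change was 0.30 (95% interval 0.16 to 0.43, adjusted p = 0.00071), a rise of 22.7%. Under every alternative, including each library left out in turn, it stayed higher, with adjusted p from 0.00011 to 0.018.

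NFKB1 (ENSG00000109320, chromosome 4 from 102501329 to 102617302), which encodes p105 and p50, had 52.4 and 49.2 CPM in siControl and 55.4 and 56.9 CPM in siALKBH5, from 845, 885, 1035 and 937 counts. The groups did not overlap, but the gap between them was of the order of the gap within siControl. Its log2 fold change was 0.15 (0.03 to 0.27) with an adjusted p of 0.051, just outside the threshold. The call turned on the setting, since the adjusted p was 0.046 with DESeq2 size factors, 0.048 with a filter at a mean of 10 counts, 0.037 without siControl replicate 1 and 0.19 with DESeq2.

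RELA, RELB and REL carry the activation domains of the family. RELA (ENSG00000173039, chromosome 11 from 65653596 to 65663094) had 105 and 110 CPM in siControl and 113 and 108 CPM in siALKBH5, on 1689 to 2103 counts, which is the deepest measurement among the subunits. The libraries overlapped, and its log2 fold change was 0.04 (-0.05 to 0.12, adjusted p = 0.54), so the interval of the fold runs from 0.966 to 1.09. RELB (ENSG00000104856, chromosome 19 from 45001430 to 45038198) had 7.14 and 6.0 CPM in siControl and 6.16 and 6.44 CPM in siALKBH5. With 106 to 115 counts per library it was the least deeply counted member, and its interval is accordingly wide, at a log2 fold change of -0.06 (-0.39 to 0.27, adjusted p = 0.83). REL (ENSG00000162924, chromosome 2 from 60881521 to 60931610), encoding c-Rel, had 26.4 and 27.0 CPM in siControl and 27.3 and 26.6 CPM in siALKBH5. The 4 values of REL lay within 1 CPM of each other, and its log2 fold change was 0.01 (-0.15 to 0.18, adjusted p = 0.91). In the annotation 43.3% of the exon bases of REL are shared with AC010733.2, which lies on the same strand and had 0 counts in all 4 libraries. How reads on the shared bases were assigned was not examined, so these 0 counts do not show that REL was fully counted. Its level per length, and its part in the subunit sum below, are therefore uncertain.

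Of the inhibitors, NFKBIA (ENSG00000100906, chromosome 14 from 35401511 to 35404749), which encodes IkB-alpha, fell. Its counts were 2042 and 2343 in siControl against 2171 and 1874 in siALKBH5. After normalization these were 127 and 130 CPM against 116 and 114 CPM, and both siALKBH5 libraries lay below both siControl libraries. The log2 fold change was -0.16 (-0.24 to -0.08, adjusted p = 0.0017), a fold of 0.896 (0.847 to 0.947). It was the most deeply counted member, and its call held under every alternative, with adjusted p from 0.0002 to 0.032.

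The other IkB protein, NFKBIB (ENSG00000104825, chromosome 19 from 38899700 to 38908893), had 19.4 and 18.1 CPM in siControl and 18.8 and 19.6 CPM in siALKBH5, on 313 to 351 counts. Its libraries were interleaved between the groups, and the log2 fold change was 0.03 (-0.16 to 0.23, adjusted p = 0.83). TNFAIP3 (ENSG00000118503, chromosome 6 from 137867188 to 137883312) encodes A20, a ubiquitin-editing enzyme that shuts off signalling upstream of the kinase complex. It had 9.19 and 9.23 CPM in siControl and 10.1 and 10.2 CPM in siALKBH5. The duplicates nearly coincided and the groups did not overlap, but 148 to 189 counts gave a wide interval around its log2 fold change of 0.14 (-0.13 to 0.41, adjusted p = 0.43).

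IKBKB (ENSG00000104365, chromosome 8 from 42271302 to 42332653), the catalytic subunit of the kinase, had 44.3 and 47.0 CPM in siControl and 43.0 and 41.6 CPM in siALKBH5. The groups did not overlap, with siALKBH5 lower, and its log2 fold change of -0.11 (-0.24 to 0.02, adjusted p = 0.20) was not called. CHUK, its catalytic partner, had 22 and 24.9 CPM in siControl and 23.5 and 21.5 CPM in siALKBH5, which overlapped (log2 fold change -0.06, adjusted p = 0.62).

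IKBKG (ENSG00000269335, chromosome X from 154541199 to 154565046), the scaffold also called NEMO, had 9.0 and 9.95 CPM in siControl and 10.7 and 12.1 CPM in siALKBH5, from 145, 179, 199 and 199 counts. The groups did not overlap, and its log2 fold change was 0.26 (-0.01 to 0.53, adjusted p = 0.13). Its values are uncertain. IKBKGP1, a near-identical pseudogene with which the counting could split reads, was counted 12 and 80 times in siControl and 5 and 9 times in siALKBH5. With both genes summed, the log2 fold change was -0.05 (adjusted p = 0.83), the opposite sign. Most of the pseudogene counts in this sum came from 1 library, siControl replicate 2.

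**Figure D4:**
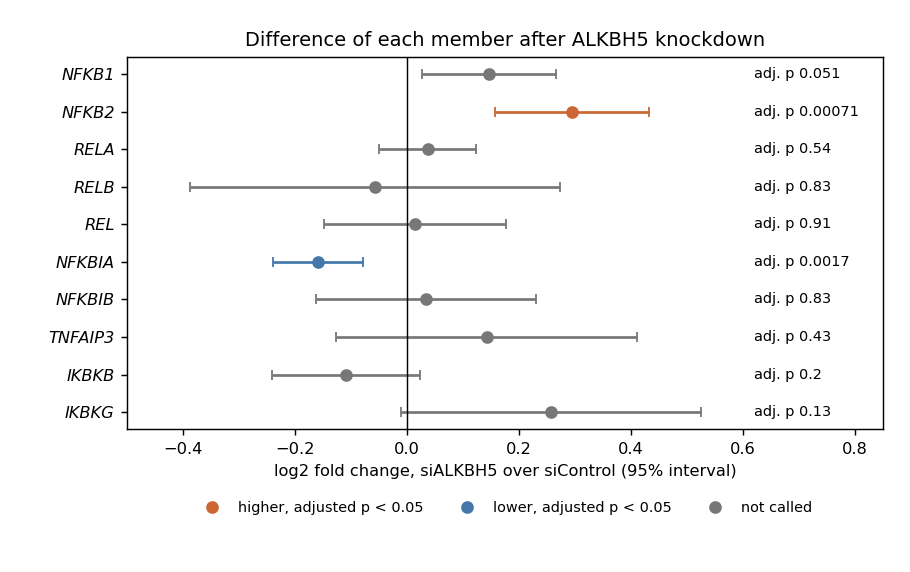
Log2 fold change of each member, siALKBH5 over siControl (points, with 95% intervals of the quasi-likelihood fit) and the adjusted p over 15075 genes. NFKB2 at 0.30 (orange, higher) and NFKBIA at -0.16 (blue, lower) were called. The interval of NFKB1 lies above 0 although its adjusted p is 0.051, and the intervals of the other members reach across 0. The sign of IKBKG turned when IKBKGP1, counted mostly in siControl replicate 2, was added to it.

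Sums by role mix the 2 called genes with members that were not called, and are given as a description with no test. Within the subunit sum, the mean of NFKB2 went from 8.04 to 9.86 FPKM, and no other gene was called. NFKB1, from 8.12 to 8.98 FPKM, and RELA, from 19.6 to 20.2 FPKM, also added to the higher sum. Of the IkB pair NFKBIA was lower while NFKBIB was not called. The 5 subunits together had 40.2 and 39.8 FPKM in siControl and 43.4 and 42.9 FPKM in siALKBH5. NFKBIA and NFKBIB together had 61.8 and 62.7 FPKM in siControl and 57.1 and 56.4 FPKM in siALKBH5. The RNA of this IkB pair per subunit RNA was therefore 1.54 and 1.57 in siControl and 1.32 and 1.32 in siALKBH5. The pair leaves out the other IkB proteins, which are in a list below, so this is not a ratio of all inhibitors to subunits. The ratio between the group means was 0.846, and the duplicates were much closer to each other than the groups. NFKBIA per RELA was 2.78 and 2.73 in siControl and 2.38 and 2.44 in siALKBH5. NFKB2 per NFKB1 was 0.986 and 0.995 in siControl and 1.11 and 1.09 in siALKBH5, below 1 in both siControl libraries and above 1 in both siALKBH5 libraries. RELA made up 47.7% and 50.5% of subunit RNA in siControl and 47.5% and 46.0% in siALKBH5. The share of NFKB2 was 20.6% and 19.6% in siControl and 22.6% and 23.1% in siALKBH5. These are ratios of RNA, and protein and the location of the dimers were not measured in these libraries.

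Around the members, 4 lists of pathway genes were examined in the same fit. The 26 upstream kinases, adaptors and ubiquitin enzymes were all tested; 3 rose and 4 fell (26.9% called, against 36.6% of all genes), and their median log2 fold change was -0.03. The 7 genes have different roles. MAP3K14, the NF-kB-inducing kinase NIK that triggers p100 cutting, had 21.3 and 20.2 CPM in siControl and 16.3 and 15.1 CPM in siALKBH5, a log2 fold change of -0.40 (adjusted p = 0.0017). TRAF3, an adaptor of the complex that degrades NIK, had 12.1 and 12.7 CPM in siControl and 16.5 and 16.1 CPM in siALKBH5 (log2 fold change 0.39, adjusted p = 0.006). Both were outside the range of the other group in each library. The ubiquitin ligases of that complex went in opposite directions: BIRC2 (cIAP1) fell from 90.3 and 93.7 CPM to 72.3 and 74.0 CPM (log2 fold change -0.33, adjusted p = 6.4e-07), and BIRC3 (cIAP2) rose from 17.8 and 15.2 CPM to 20.1 and 19.4 CPM (0.26, adjusted p = 0.042). Of the remaining called genes, the IKK-related kinase IKBKE rose (0.37), and the kinase MAP3K8, which p105 holds in check (-0.33), and the TNF receptor adaptor TRADD (-0.14) fell.

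Among 17 other IkB proteins and inhibitors, all tested, 1 rose and 4 fell (29.4% called), with a median log2 fold change of -0.03. ZC3H12A, the RNase Regnase-1 that degrades cytokine mRNAs, rose from 21.6 and 20.7 CPM to 27.8 and 27.6 CPM (0.39, adjusted p = 0.00036). The nuclear IkB protein NFKBIZ fell from 25.1 and 21.5 CPM to 19.8 and 18.2 CPM (-0.29, adjusted p = 0.017). TAX1BP1 (-0.26), RNF11 (-0.19) and ITCH (-0.18), which act with A20 in a ubiquitin-editing complex, each fell, while TNFAIP3 itself was not called.

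Of the 42 NF-kB target genes 28 were tested, 5 rose and 11 fell (57.1% called, against 36.6% of all genes), and their median log2 fold change was -0.11. With DESeq2, run without the expression filter, these counts were 3 and 7, while 3483 of 27826 genes were called instead of 5523 of 15075. Leaving out single libraries lowered some of these counts as well, and also the number called over all genes. The other 14, among them IL6, TNF, CXCL2 and CCL20, had at most 8 counts in any library. They did not pass the expression filter, so their change was not tested. CCL2, a monocyte chemokine, rose from 2.92 and 3.0 CPM to 5.46 and 5.23 CPM (log2 fold change 0.85, adjusted p = 0.0011). The IL-1 receptor antagonist IL1RN rose from 151 and 161 CPM to 189 and 195 CPM (0.30, adjusted p = 3.9e-08). The early response gene IER3 rose from 26.1 and 20.6 CPM to 27.6 and 29.7 CPM (0.30, adjusted p = 0.01), with its siControl duplicates apart. ZC3H12A and BIRC3, which are shared with the lists above, also rose. Among the lower genes, the neutrophil chemokine CXCL1 fell from 8.32 and 9.84 CPM to 5.78 and 5.96 CPM (-0.63, adjusted p = 0.0013). The antimicrobial lipocalin LCN2 fell from 61.4 and 62.0 CPM to 46.2 and 46.3 CPM (-0.42, adjusted p = 4.6e-07). Lower values were also called for S100A9 (-0.29), NFKBIZ (-0.29), the caspase-8 regulator CFLAR (-0.26) and the mitochondrial superoxide dismutase SOD2 (-0.23). Both directions were thus present among targets of the same factor.

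Not every classical target was called. CXCL8, the neutrophil chemokine IL-8, went from 43 and 44 counts to 53 and 35, a log2 fold change of -0.03 (adjusted p = 0.94). ICAM1 had 72 and 86 counts against 56 and 82 (-0.23, adjusted p = 0.44). IL1B had 57 and 80 counts against 93 and 93, and its log2 fold change of 0.40 had an adjusted p of 0.10. IL1A had 10 and 11 counts against 3 and 10, too few for a useful estimate (-0.72, interval -1.97 to 0.54). Matches to the kappaB consensus were found in the windows of 17 of the 35 targets with a window (48.6%), 6 of 16 other inhibitors (37.5%), 6 of 23 upstream genes (26.1%) and 2 of 19 receptors and ligands (10.5%), beside 13.3% of all genes with a window.

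Of 28 receptors and ligands, 22 were tested, 1 rose and 7 fell (36.4% called), and their median log2 fold change was -0.19. NGFR, the low-affinity neurotrophin receptor, rose from 20.8 and 22.6 CPM to 42.8 and 39.3 CPM (0.92, adjusted p = 1.8e-11). TNFSF10, encoding the death ligand TRAIL, fell from 314 and 321 CPM to 189 and 186 CPM (-0.76, adjusted p = 3.8e-20). Both receptor chains for IL-1 fell, IL1R1 from 13.7 and 11.5 CPM to 8.35 and 7.90 CPM (-0.62, adjusted p = 0.00036) and IL1RAP from 47.5 and 50.7 CPM to 38.4 and 43.9 CPM (-0.26, adjusted p = 0.0029). TLR3, the receptor for double-stranded RNA, fell (-0.45), as did the ectodysplasin receptor EDAR (-0.28). PELI2, an E3 ligase that acts downstream of IL-1 and Toll-like receptors and that the study took up as its target from these libraries together with m6A maps, fell from 501 and 538 counts to 262 and 284 (-0.97, adjusted p = 4e-10). Whether the pathway was active was not measured in these libraries.

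**Figure D5:**
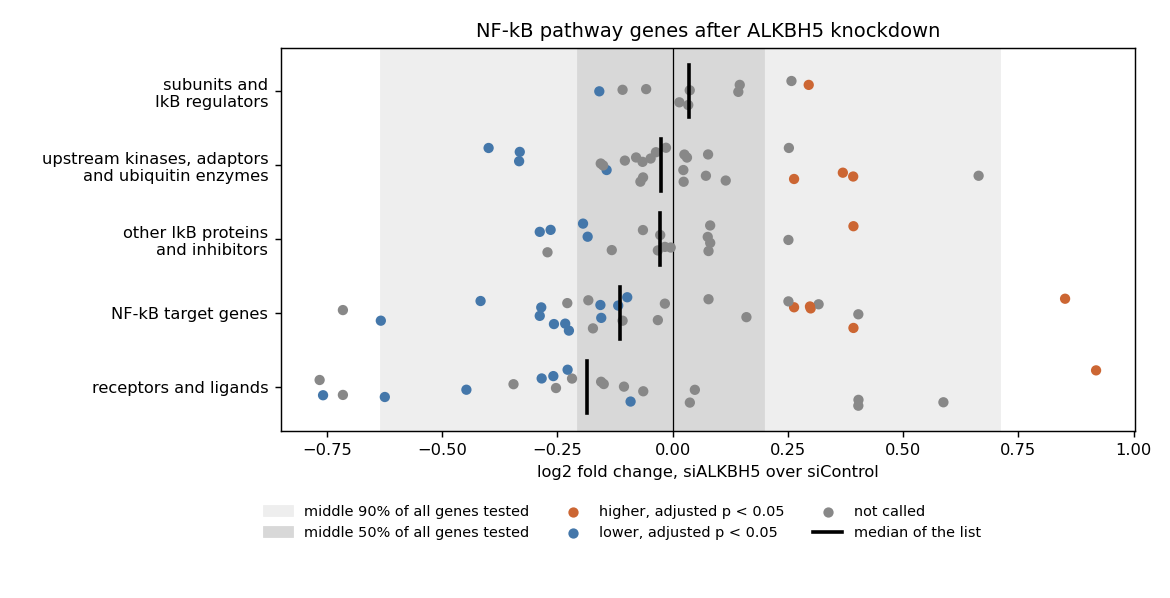
Log2 fold change, siALKBH5 over siControl, of the tested genes of the members and of 4 NF-kB pathway lists (points: orange higher, blue lower, grey not called; black bars: medians of the lists; vertical jitter has no meaning). The shaded bands hold the middle 50% (-0.20 to 0.20) and the middle 90% (-0.63 to 0.71) of all genes tested; all 10 members lie between -0.16 and 0.30, and the medians of target genes (-0.11) and of receptors and ligands (-0.19) lie below 0.

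Markers of other cell types were low beside the keratinocyte markers, though not beside every member, and some moved with the groups. The summed fibroblast markers were 21.9 and 22.8 CPM in siControl and 18.7 and 19.1 CPM in siALKBH5, with DCN and LUM lower (2 of 3 tested), COL1A1 at 267 to 310 counts and not called, and COL1A2, PDGFRA and PDGFRB at 0 counts. Summed immune markers were between 2.54 and 4.77 CPM, with CD14 higher as the 1 tested gene of 7, and PTPRC had at most 2 counts. Endothelial markers summed to between 32.5 and 35.5 CPM, almost all from VWF and CDH5, of which VWF was higher and CDH5 lower, with PECAM1 at no more than 1 count and KDR at 0. Melanocyte markers summed to between 11.9 and 14.2 CPM, with 0 of 2 tested called, MITF at 163 to 198 counts and TYR at 0. Keratinocyte markers summed to between 32127 and 33169 CPM, with 3 of 10 higher and 4 lower. Among them KRT5 was higher (log2 fold change 0.68) and KRT15 lower (-0.48). The part of these genes in the values of the members was not tested.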

How the data were processed

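Poly-A RNA of HaCaT cells was sequenced in 2 siControl and 2 siALKBH5 libraries. The submitters' processing notes name CASAVA, HISAT2 2.0.5, featureCounts 1.5.0-p3, DESeq2 1.20.0 and hg38; the strand setting is not given in the sources used here. The authors deposited 2 tables, each with raw counts per gene for 1 siControl and 1 siALKBH5 library, not normalized, which were used here. The deposited FPKM were scaled by the authors within each table and were not used; FPKM were recomputed from the counts. Columns with the authors' own comparison of 1 library with 1 (log2 fold changes and p-values) were not used. Of the 58735 genes, 58724 matched GENCODE 29 in identifier and coordinates.

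The quasi-likelihood test of edgeR (version 4.0.16, R 4.3.3; filterByExpr, TMM factors, no covariates) was applied to the counts, with Benjamini-Hochberg adjustment over 15075 genes and a common biological coefficient of variation of 0.0253. Library totals of 16017502 to 18837807 set the precision, and intervals cover the spread between these libraries. Duplicates differed by more than sampling noise (chi-square per degree of freedom 1.73 in siControl and 1.84 in siALKBH5), so they were counted separately. Alternatives were DESeq2 1.42.0 as the test, its size factors or plain library sizes in edgeR, dropping the filter or raising it to a mean of 10 counts, the replicate block, leaving out each library, levels without the length, and, chosen after seeing the data, IKBKG summed with IKBKGP1. The fits were tested on simulated data.

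The members and gene lists were chosen with earlier results of these data known. Named genes are the members, ALKBH5, PELI2, CHUK, IKBKGP1, up to 5 higher and 5 lower called genes of each list by size of log2 fold change (mean CPM of at least 1, same direction in both tables), and fixed targets (CXCL1, CXCL2, CXCL8, IL6, IL1A, IL1B, TNF, ICAM1, SOD2, CCL20, BIRC3). AC010733.2 was named after its overlap with a member was seen, and the markers named were chosen after their values were seen. Promoter windows are those of RefSeq, matched by symbol. SOD2 has 2 rows, of which the one with counts was used. Some genes are not reported here.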

Additional observations from a re-analysis of the deposited data

How the results depend on the processing

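NFKB2 and NFKBIA kept their direction and their call under all 10 alternatives. NFKB1 passed the threshold with DESeq2 size factors (log2 fold change 0.15), a mean of at least 10 counts (0.15) and the replicate block (0.14, adjusted p = 0.037), and with siControl replicate 1 left out, so 2 members instead of 1 were higher under DESeq2 size factors, a mean of at least 10 counts and the replicate block. REL changed sign with library size only (-0.0078), and IKBKG with IKBKGP1 summed (-0.048); the first shifts all genes, whose median moved from -0.0081 to -0.03, and the second was chosen after seeing the data. Target genes numbered 3 higher and 7 lower with DESeq2, and the cause was not tested. DESeq2 called 3483 of 27826 genes in all instead of 5523 of 15075. Fewer genes in all were also called with any single library left out.

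When libraries were left out one by one, the arm with 1 library being assumed to vary like the other, the log2 fold change ranged from 0.098 to 0.19 for NFKB1, from -0.18 to 0.071 for RELB, from -0.0031 to 0.034 for REL and from -0.018 to 0.086 for NFKBIB, where REL, RELB and NFKBIB were never called. Members called higher ranged from 1 to 2, target genes higher from 3 to 5, and target genes lower from 6 to 9. Target genes higher fell to 3 without siControl replicate 2, and target genes lower to 7 without siControl replicate 1 and to 6 without siALKBH5 replicate 2.

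The sources do not say whether libraries of the same table share a culture, batch or day. Such libraries deviated together weakly (Pearson r = 0.107 over 9259 genes, with 2 pairs), and with the replicate block 5922 genes were called instead of 5523. The block changed no other call of a member. Of the log2 fold changes recomputed for the members and ALKBH5, 102 kept their direction and side of the threshold, 4 passed it and 5 changed sign. Of the 110 counts of called genes recomputed, 38 differed from the reported count, 29 of them by no more than 1.5 times and 9 by more. Depth limits RELB, TNFAIP3 and IKBKG most, at 106 to 199 counts per library.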
